A study of Drosophila melanogaster with 3 samples.

Results

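Nautilus (Nau) summits that stand alone deep inside genes were selected on their signal and position from the authors' list of reproducible regions in whole fly embryos. A summit, the point of highest signal in a region, was kept when it lay more than 2000 bp from the transcription start site (TSS) of every protein-coding transcript. It also had to lie inside the body of a protein-coding gene and to have no other summit of the list within 3000 bp. These limits left 570 summits, or 15.1% of the list. Of the others, 483 lay inside genes at the same distance from a TSS but with a neighbour within 3000 bp (called clustered here), 455 were equally distal but outside protein-coding genes, and 2259 lay within 2000 bp of a TSS. The 570 isolated summits were thus chosen by signal and position, so their signal values, ranks and distances are given as a description, without a test. The sequence under them was not used by the rule and was tested. The words tested were, however, chosen with earlier results of these data known.

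The study mapped where Nau binds by chromatin immunoprecipitation and sequencing in Drosophila melanogaster embryos of both sexes, aged 4 to 24 h. The embryos came from a nau-GFP line that stably carries nau fused at its C terminus to GFP, and all samples share that transgene and stage. The antibody recognised GFP according to the sample descriptions, although the antibody label names nau. The series holds 1 group of 3 biological replicates, the fragments after sonication measured 200 to 800 bp, and the deposited lists name a control file but no untagged or other-stage group was compared here. Whole embryos mix all tissues, so cell types that bind Nau cannot be told apart from these lists. Sequencing depth is unknown from the files used, and the intervals given cover counting error over regions only.

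Nau is the only fly member of the MyoD family of basic helix-loop-helix (bHLH) factors, and it is made in a subset of embryonic muscle precursors. bHLH dimers contact the E-box, a palindrome-like DNA word written CANNTG, and factors of the MyoD family prefer the form CAGCTG. Enhancers of fly developmental genes often lie in introns, several kilobases from the promoter. A lone summit in an intron is therefore a different setting from a summit at a promoter, where many factors and the transcription machinery are crosslinked together.

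The sequences of the strongest isolated summits show how varied this DNA was. Each is the window of 201 bp centred on a summit, from RefSeq's Release 6 genome (the dm6 build), plus strand, 5′ to 3′. Capitals mark CAGCTG and the Fox word RTAAAYA on either strand, the words on which the results turn. The first set holds the 6 strongest printable members with CAGCTG, in introns of BicD, Ten-m, zormin, rdx, sima and shep. BicD encodes a dynein adaptor, Ten-m a teneurin cell-surface receptor, zormin a sarcomeric protein, rdx an adaptor for protein degradation in Hedgehog signalling, sima the fly hypoxia-inducible factor and shep an RNA-binding protein.

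BicD, chr2L:17466444-17466644: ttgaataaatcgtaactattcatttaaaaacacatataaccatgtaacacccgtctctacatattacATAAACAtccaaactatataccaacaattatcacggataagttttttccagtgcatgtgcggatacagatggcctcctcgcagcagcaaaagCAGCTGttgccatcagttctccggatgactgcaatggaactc
Ten-m, chr3L:22390409-22390609: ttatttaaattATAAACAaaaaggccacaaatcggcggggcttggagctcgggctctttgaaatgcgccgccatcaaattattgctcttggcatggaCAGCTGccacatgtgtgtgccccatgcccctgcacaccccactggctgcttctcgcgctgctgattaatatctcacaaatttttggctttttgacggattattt
zormin, chr3L:2136519-2136719: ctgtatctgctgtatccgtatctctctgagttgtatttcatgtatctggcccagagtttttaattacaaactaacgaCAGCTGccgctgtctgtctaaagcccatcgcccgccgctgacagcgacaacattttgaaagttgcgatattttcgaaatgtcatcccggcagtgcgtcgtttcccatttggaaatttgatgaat
rdx, chr3R:13978028-13978228: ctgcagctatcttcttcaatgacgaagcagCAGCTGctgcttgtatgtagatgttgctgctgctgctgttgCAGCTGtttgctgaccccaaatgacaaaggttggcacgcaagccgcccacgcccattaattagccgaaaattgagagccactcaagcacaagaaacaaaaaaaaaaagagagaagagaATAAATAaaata
sima, chr3R:30092716-30092916: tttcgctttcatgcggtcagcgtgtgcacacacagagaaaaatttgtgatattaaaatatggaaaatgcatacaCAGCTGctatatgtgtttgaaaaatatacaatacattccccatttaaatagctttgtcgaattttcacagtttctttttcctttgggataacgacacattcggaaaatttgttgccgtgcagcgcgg
shep, chr3L:5187043-5187243: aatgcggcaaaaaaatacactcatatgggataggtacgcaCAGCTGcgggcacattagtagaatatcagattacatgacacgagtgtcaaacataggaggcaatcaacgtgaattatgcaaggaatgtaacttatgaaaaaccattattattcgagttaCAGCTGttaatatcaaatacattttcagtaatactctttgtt

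The second set holds the 4 strongest printable members that lack CAGCTG, in introns of sim, CG32486, Scr and Pits. This set was picked to lack the word, which 15.3% of all members held.

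sim, chr3R:13068149-13068349: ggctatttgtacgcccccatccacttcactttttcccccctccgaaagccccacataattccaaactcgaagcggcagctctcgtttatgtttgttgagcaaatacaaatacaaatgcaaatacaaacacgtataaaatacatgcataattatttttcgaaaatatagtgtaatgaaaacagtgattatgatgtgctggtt
CG32486, chr3L:3060676-3060876: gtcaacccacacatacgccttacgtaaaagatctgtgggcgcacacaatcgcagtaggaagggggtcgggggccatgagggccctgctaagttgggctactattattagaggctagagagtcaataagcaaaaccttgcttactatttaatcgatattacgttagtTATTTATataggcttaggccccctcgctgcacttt
Scr, chr3R:6828372-6828572: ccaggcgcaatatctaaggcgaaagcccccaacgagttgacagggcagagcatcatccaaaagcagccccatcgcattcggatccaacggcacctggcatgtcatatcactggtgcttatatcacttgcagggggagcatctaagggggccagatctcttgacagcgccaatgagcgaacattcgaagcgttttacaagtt
Pits, chrX:12579585-12579785: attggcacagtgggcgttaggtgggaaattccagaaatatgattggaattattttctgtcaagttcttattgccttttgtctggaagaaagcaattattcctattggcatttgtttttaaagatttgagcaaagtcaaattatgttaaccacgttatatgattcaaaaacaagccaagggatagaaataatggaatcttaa

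The third set holds the 4 strongest printable members inside genes of the muscle lists. These genes are Dys, the fly dystrophin, kirre, an adhesion receptor of the founder cells in myoblast fusion, and nau itself.

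Dys, chr3R:19584865-19585065: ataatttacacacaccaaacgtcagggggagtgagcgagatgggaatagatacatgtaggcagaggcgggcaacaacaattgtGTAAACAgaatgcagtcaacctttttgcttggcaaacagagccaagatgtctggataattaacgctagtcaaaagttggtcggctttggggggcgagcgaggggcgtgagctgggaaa
kirre, chrX:3097076-3097276: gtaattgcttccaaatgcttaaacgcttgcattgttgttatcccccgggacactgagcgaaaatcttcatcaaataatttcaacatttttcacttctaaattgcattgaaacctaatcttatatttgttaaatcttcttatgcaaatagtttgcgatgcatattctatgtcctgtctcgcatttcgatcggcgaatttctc
Dys, chr3R:19499139-19499339: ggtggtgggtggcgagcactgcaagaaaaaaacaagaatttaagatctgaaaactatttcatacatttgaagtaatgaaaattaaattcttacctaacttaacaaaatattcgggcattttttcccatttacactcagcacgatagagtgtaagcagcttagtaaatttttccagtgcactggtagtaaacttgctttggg
nau, chr3R:23713969-23714169: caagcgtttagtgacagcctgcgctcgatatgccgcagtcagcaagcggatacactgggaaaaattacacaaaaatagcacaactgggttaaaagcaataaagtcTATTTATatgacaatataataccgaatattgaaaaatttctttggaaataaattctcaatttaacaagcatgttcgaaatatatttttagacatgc

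In the first set, CAGCTG lay from 0.5 bp (Ten-m) to 61.5 bp (BicD) from the summit, measured to the middle of the word and to the nearest match where a window had several. The windows at rdx and shep held 2 matches each. None of the 4 windows of the muscle lists held CAGCTG, beside 15.3% of all members. The window of zormin, a sarcomeric gene not on those lists, held it 20.5 bp from the summit, but its set was picked for the word. The summit in nau and the stronger one in Dys had a Fox match, beside 44.4% of all members.

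CAGCTG was the E-box form that set the isolated summits apart from the DNA next to them. It occurred within 100 bp of 87 of 570 summits, or 15.3% (95% Wilson interval 12.5 to 18.4%). In windows of the same length 1000 bp to either side of the same summits it occurred in 92 of 1140, or 8.07%. The ratio was 1.89 (2-sided Fisher's exact test, adjusted p = 7.95e-05 over 10 E-box forms). Over all listed summits the word was present at 15.1%, so the isolated summits held it as often as the list as a whole. When the same rule was applied to each replicate's own strongest regions, as many as the pooled list holds, CAGCTG was found at 15.2%, 13.99% and 16.8% of the isolated summits. Their flanks gave 8.70%, 7.47% and 7.96% in the same order. All 3 replicates were above their flanks, with a mean ratio of 1.91 ± 0.187 (SD, n = 3).

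None of the other 9 E-box forms passed the test, and none of them had an unadjusted p under 0.05 (Fisher's exact test). Their ratios to the flanks ran from 0.769 for CACGTG, the form of the Myc and clock factors, to 1.17 for CAATTG. The form CAGATG occurred at 6.32% of summits and in 7.81% of flanks (adjusted p = 0.949, Fisher's exact test). Some E-box of any form was present at 406 of the 570 summits (71.2%) and 164 had none (28.8%), while 34.3% of flanks had none. A second CAGCTG in the same window was rare, with 10 members and 3 flanks holding more than 1.

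The other word that passed was the Fox word RTAAAYA, bound by forkhead factors. It occurred at 253 of 570 isolated summits, or 44.4% (95% Wilson interval 40.4 to 48.5%), and in 308 of 1140 flanks, or 27.0%. The ratio was 1.64 (Fisher's exact test, adjusted p = 1.5e-11 over 15 words), and the share over all listed summits was 40.2%. Replicates gave 44.1%, 41.2% and 42.1% at the isolated summits that each yielded, and a mean ratio of 1.61 ± 0.0567 (SD, n = 3). Of the other 14 words, none passed. GATA (WGATAR) was at 38.1% of summits and 33.8% of flanks (Fisher's exact test, adjusted p = 0.321), and Mef2, the myogenic MADS-box factor, at 8.42% and 7.37% (adjusted p = 0.748). The TEAD word GGAATG was at 6.14% of summits and 9.91% of flanks, with an adjusted p of 0.0614 (Fisher's exact test), and was the only one of the 14 with an unadjusted p under 0.05. The words of Zelda, DRE and Ohler1 were at fewer than 1% of members each.

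For both words, the difference between summits and flanks varied with base composition. The median GC share was 36.8% in the summit windows and 39.8% in their flanks. In an alternative added after the data were seen, windows were split at the median GC share of 38.8%. Among the 219 summit and 620 flank windows above it, CAGCTG was at 29.2% and 10% (ratio 2.92, Fisher's exact test adjusted p = 1.04e-09) and Fox at 43.8% and 16.1% (ratio 2.72, adjusted p = 1.97e-14). Among the 351 summit and 520 flank windows at or below it, CAGCTG was at 6.55% and 5.77% (ratio 1.14, Fisher's exact test adjusted p = 0.794) and Fox at 44.7% and 40% (ratio 1.12, adjusted p = 0.865). Both calls were thus lost among windows of lower GC share.

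**Figure D1:**
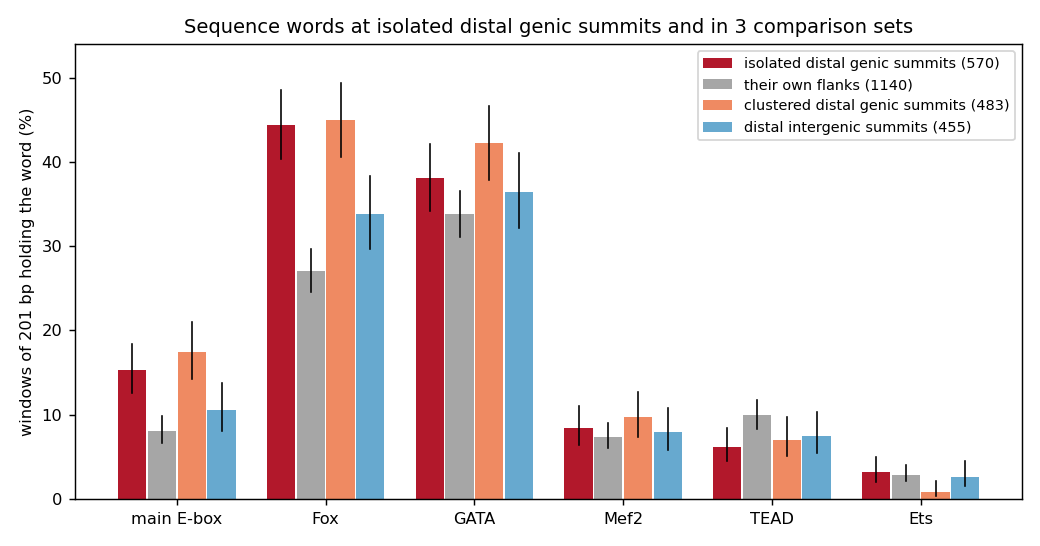
Share of 201 bp windows holding 6 of the words tested (vertical axis, %) at the 570 isolated summits, in their 1140 flanking windows, at 483 clustered and at 455 intergenic distal summits; the main E-box is CAGCTG, bars are shares and lines are 95% Wilson intervals. The main E-box stood at 15.3% of isolated summits and 8.07% of flanks, and Fox at 44.4% and 27.0%.

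Both words were densest next to the summit. The density of CAGCTG was 1.36 matches per kb up to 20 bp from an isolated summit, 0.673 from 20 to 50 bp, 0.772 from 50 to 100 bp and 0.428 from 400 to 1000 bp. The Fox word fell from 4.52 per kb within 20 bp to 3.77, 2.40 and 2.06 in the next bins, and was at 1.98 per kb from 400 to 1000 bp. GATA had a flatter profile, with 2.63 per kb within 20 bp and 2.30 per kb in the outermost bin. A word that was not among those fixed, ACAGTG, had another shape. It was at 0.439 per kb within 20 bp, close to the 0.404 per kb from 400 to 1000 bp, and highest from 50 to 100 bp at 1.23 per kb.

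**Figure D2:**
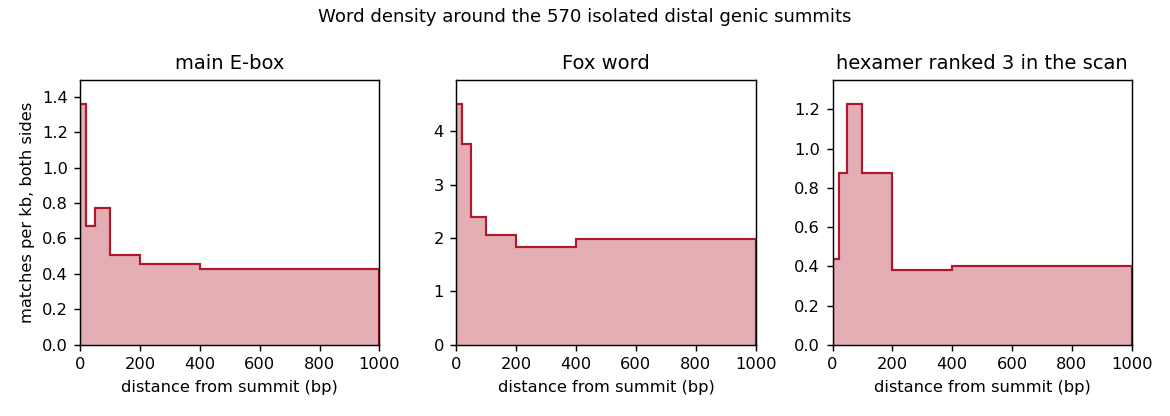
Matches per kb (vertical axis) of CAGCTG (main E-box), the Fox word and ACAGTG (ranked 3 in the hexamer scan) by distance from the 570 isolated summits in bp (horizontal axis, both sides summed, bins of unequal width). The first pair peaks within 20 bp, at 1.36 and 4.52 per kb, and ACAGTG from 50 to 100 bp, at 1.23 per kb.

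A scan of every word of 6 letters, each counted with its reverse complement, placed these results among all others. Against their flanks, 79 words passed (Fisher's exact test, adjusted over all hexamers). Of all hexamers, 57 (2.74%) were more frequent at the summits and 22 (1.06%) less frequent, and 400 had an unadjusted p under 0.05. TAAATA led, at 43.9% of summits and 26.8% of flanks (Fisher's exact test, adjusted p = 4e-09), followed by AAATAT, at 48.6% and 32.5%. ACAGTG was next, at 16.7% and 7.02%, a ratio of 2.38 (Fisher's exact test, adjusted p = 1.29e-06). CAGCTG was at place 11 with an adjusted p of 0.0015. With summits required to match in both other replicates, 24, 21 and 26 hexamers passed without replicates 1 to 3, of which 20, 18 and 22 were among the 79. Of the 57 words, 27 had at most 1 G or C and 12 shared 5 letters in a row with the Fox word. Of the 22 less frequent words 19 had 3 or more G or C, among them GCAGGA at 3.16% against 8.51%. These letter counts were not set beside those over all hexamers.

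No word tested separated isolated from clustered summits inside genes. Of the 25 words, none passed the Fisher's exact test after adjustment, and 1 had an unadjusted p under 0.05. CAGCTG was at 15.3% of isolated and 17.4% of clustered summits (ratio 0.878, Fisher's exact test adjusted p = 0.915), with intervals of 12.5 to 18.4% and 14.3 to 21.0%. Fox was at 44.4% and 44.9% (ratio 0.988, Fisher's exact test adjusted p = 1). The word with an unadjusted p under 0.05 was the Ets word CCGGAAR. It was at 3.16% of isolated and 0.828% of clustered summits (p = 0.00877, adjusted p = 0.219, Fisher's exact test). No hexamer passed either, with 89 at an unadjusted p under 0.05. These tests do not show that the classes hold the same words.

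Against distal summits outside genes, the Fox word differed. It was at 44.4% of isolated genic summits and at 33.8% of 455 intergenic ones (ratio 1.31, Fisher's exact test, adjusted p = 0.0165 over 25 words). This call was lost whichever replicate was left out, when summits had to match in both others (ratios 1.23 to 1.31, adjusted p from 0.185 to 0.634 in Fisher's exact tests over 268 to 279 intergenic summits), and with windows of 250 bp to either side (ratio 1.11). CAGCTG was at 15.3% and 10.5% (ratio 1.45, Fisher's exact test adjusted p = 0.201). CAATTG, at 10.4% and 5.71%, had an adjusted p of 0.106. No hexamer passed, and 115 had an unadjusted p under 0.05.

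The share of isolated summits with CAGCTG did not follow their signal in order. Split into 5 bins of 114 by signal, it was 11.4% in the strongest, then 18.4%, 16.7%, 9.65% and 20.2% in the weakest. The Fox word gave 50%, 40.4%, 41.2%, 50.9% and 39.5%. By distance from the TSS, CAGCTG was at 15.7% of the 230 summits up to 5000 bp away, at 15.4% of the 175 up to 10000 bp and at 14.5% of the 165 farther out. Fox was at 47.0%, 46.3% and 38.8% of these, and the intervals of the first and last, 40.6 to 53.4% and 31.7 to 46.4%, overlapped. On the X chromosome, 13 of 121 summits held CAGCTG and 39 of 121 the Fox word, the lowest shares among the 5 large arms, at 10.7% and 32.2%. The X interval for CAGCTG, 6.39 to 17.5%, overlapped that of every other large arm. For Fox, the X interval of 24.6 to 41.0% overlapped all of these except that of 2R, 41.7 to 63.1%. Differences between arms were not tested.

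Most isolated summits were found again in each replicate, about as often as the list as a whole. A match means a summit within 100 bp among that replicate's strongest regions, as many as the pooled list holds. Replicate 1 matched 74.4% of the 570, replicate 2 71.9% and replicate 3 80.2%. All 3 matched for 294 members, or 51.6%, against 51.5% of all listed summits, and 19 members matched in none. Among all 30000 regions of every replicate, 529 members (92.8%) were listed, against 87.4% of all listed summits. The rule yielded similar numbers from each replicate, 540, 522 and 553 isolated summits, with a mean of 538 ± 15.6 (SD, n = 3). Isolation held among listed summits only. A weaker summit of the pooled list, below the reproducibility threshold, lay within 3000 bp of 554 members (97.2%), compared with 92.6% of all listed summits.

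Signal values of the isolated summits, which are the authors' own measure of enrichment, ran from 166 to 1336.5 with a median of 231. Over the whole list the median was 244. Of the members, 3 (0.526%) were among the 100 strongest regions, against 2.65% of all listed and 1.66% of clustered summits. Among the 500 strongest were 51 members (8.95%), against 13.3% of all listed and 8.49% of clustered summits. In the stronger part of the list by rank lay 261 members (45.8%), against 49.99% of all listed and 48.9% of clustered summits.

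The strongest member lay in the first intron of CG12769 at 2R, 8060795 to 8061215, with a signal value of 1336.5. It ranked 31 in the pooled list and 48, 20 and 28 in replicates 1 to 3. Next came a summit shared by the overlapping genes CG12912, Hr3 and CG46321 at 2R, 10219847 to 10220300. Hr3 encodes a nuclear receptor of the ecdysone response, and the summit ranked 53, 27 and 37 in the replicates. The one ranked next lay in intron 4 of osa, a subunit of the Brahma chromatin remodelling complex, in the exon of a non-coding gene at 3R, 17704228 to 17704618. It ranked 60, 21 and 76. These were the 3 members inside the top 100 of the list.

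Behind them stood genes of varied roles. BicD (2L, 17466237 to 17466766) had ranks of 145, 67 and 141. The summit in sim, the bHLH-PAS regulator of the ventral midline (3R, 13067998 to 13068406), was at 116, 149 and 115. That in the Hox gene Scr (3R, 6828301 to 6828649) was at 123, 99 and 193, and lay 20033 bp from the nearest TSS and 63371 bp from the next listed summit. Pde1c, a cyclic nucleotide phosphodiesterase (2L, 11816414 to 11816749), was the strongest of the 5 members in coding exons. Its window held 6 E-boxes, the highest count, which 4 members reached, and its ranks of 88, 329 and 121 were among the most spread of these 20. The homeobox gene otp also had its summit in a coding exon, and the polarity gene baz in a 5′ UTR.

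The others of the 20 strongest members were in CG32486, Pits, osp, Oatp30B, dnr1, sbb, Btk, Hr4, Dys, the overlapping pair aos and CG33158, and Psc. sbb encodes a transcriptional corepressor, Btk a cytoplasmic tyrosine kinase, Hr4 a nuclear receptor, aos a secreted inhibitor of the EGF receptor and Psc a Polycomb group protein. Pits, whose product binds the repressors Ttk69 and Sin3A, was at ranks 161, 192 and 171. Dys was at 278, 323 and 208 and aos at 286, 256 and 262. Each of the 20 was matched in all 3 replicates, beside 51.6% of all members. They were picked by signal pooled over these same replicates, so the match is a description only. CAGCTG was at 3 of the 20, beside 15.3% of all members.

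**Figure D3:**
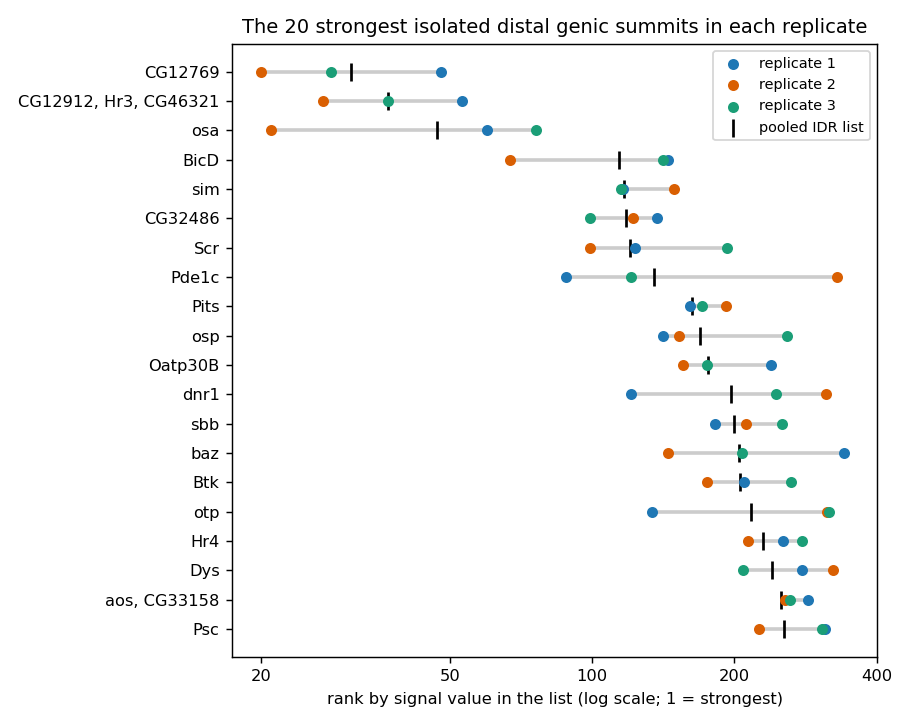
Rank by signal value (horizontal axis, log scale, 1 is the strongest) of the 20 strongest isolated summits in each replicate's own list (coloured points) and in the pooled list (black ticks), named by host gene. The top 3 ranked between 20 and 76 in every replicate, and dnr1, otp and Pde1c were among those spread most widely.

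Isolated summits were concentrated in introns and nearly absent from coding sequence. The same held for clustered summits inside genes, with 96.7% in introns and 0.207% in coding exons. The bases inside a protein-coding gene and more than 2000 bp from a TSS, called eligible here, came to 55.5 Mb and served as the comparison. They include bases within 3000 bp of another listed summit, where no member could lie, here and in all densities per Mb. Introns held 546 members, or 95.8% (95% Wilson interval 93.8 to 97.2%), and 75.4% of these eligible bases. Coding exons held 5 members, or 0.877%, against 16.8% of eligible bases, and UTRs 10 members, or 1.75%, against 7.16%. The first intron of a transcript held 326 members, 57.2% against 28.9%. Applied to each replicate, the rule gave 94.3% ± 0.294 in introns and 55.5% ± 2.62 in first introns (SD, n = 3).

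Introns longer than 10000 bp and the 5′ part of genes also held more members than their share of bases. These introns held 58.2% of members against 45.2% of eligible bases. Those over 20000 bp, taken alone, held no more than their share, at 26.3% against 26.5%. Along the gene body, 4 equal parts counted from the 5′ end held 27.2%, 34.4%, 25.6% and 12.8% of members. The eligible bases were split 18.0%, 25.4%, 28.2% and 28.3%, so the part at the 3′ end was the emptiest. The median member lay 6274 bp from the nearest TSS, which belonged to the host gene for 426 of the 570 (74.7%). It lay 2796 bp from the nearest exon, and 7533 bp from the next listed summit. Clustered summits inside genes were in first introns more often still, at 64.2%.

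**Figure D4:**
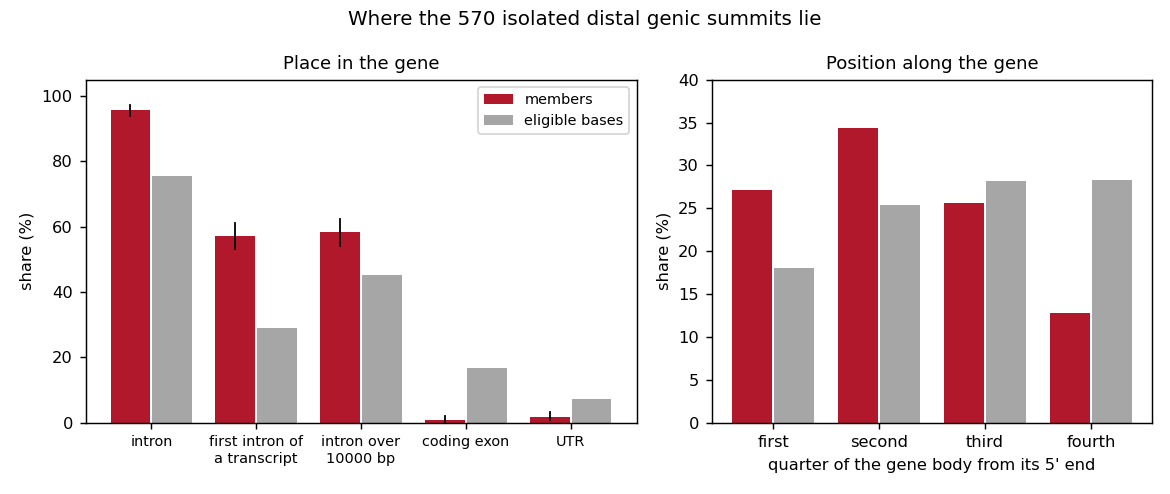
Left, share (%) of the 570 isolated summits (red, lines are 95% Wilson intervals) and of eligible bases (grey) by place. The places are introns, first introns, introns over 10000 bp (measured as stretches free of exons), coding exons and UTRs. Right, the same for 4 equal parts of the gene body from the 5′ end. Introns hold 95.8% of summits and 75.4% of bases, and the part at the 3′ end 12.8% and 28.3%.

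By chromosome arm, 138 members lay on 3R, 121 on X, 117 on 2L, 113 on 3L, 80 on 2R and 1 on chromosome 4. Per eligible megabase this was 12.9 on 2L, 11.6 on X, 10.3 on 3L, 9.44 on 3R, 8.29 on 2R and 1.34 on chromosome 4. The genome-wide density was 10.3 per Mb.

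The 570 summits fell in 413 of the 5721 protein-coding genes with any eligible base, which is 7.22%. Most of these genes, 291, held 1 isolated summit, 75 held 2 and 47 held 3 or more. For 154 genes the isolated summit was their only listed summit, and 87 also had clustered summits. Gene length went with the chance of holding one. Of genes with up to 10000 eligible bases, 1.85% held a member, and the share was 18.9% up to 30000 bases, 35.8% up to 100000 and 40% beyond. Per megabase the density was 7.49, 13.7, 12.7 and 4.50 in these bins, so the longest genes were the sparsest.

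Eip75B, a nuclear receptor induced by ecdysone, held the most isolated summits, 6, spread over introns of a gene with 84.2 kb of eligible sequence. Their signal values ran from 180 to 591. The strongest (3L, 18029625 to 18029918) ranked 417, 311 and 390 in the replicates, and the weakest 3115, 4228 and 4562. Snoo, which encodes a Ski-family corepressor, held 5, all in a first intron and with signal values of 176.5 to 438. Genes with 4 were Hr4, rdx, bun, kirre, fz, nmo, RapGAP1, Ptp61F, Drak, spri and hth. Hr4 stood out among these for strength, with 3 of its 4 summits above a signal of 500, ranked 253, 214 and 278, then 279, 304 and 254, then 247, 558 and 538 in the replicates.

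Genes with 3 included further nuclear receptors and ecdysone targets (Hr3, EcR, ftz-f1 and Eip74EF), the netrins NetA and NetB, the BMP receptor tkv, the glypican dlp and dnc, a cAMP phosphodiesterase. Socs36E, an inhibitor of JAK/STAT signalling, was the densest of the genes with 3, at 29.0 per 100 kb. Its summits had signal values of 367, 344 and 250. Some summits counted for several genes, since 25 of the 570 lay in overlapping genes, as at Hr3.

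Lists of genes by function showed where isolated summits were common per length. Density is given beside the 10.3 per Mb of all eligible bases, and the share of genes holding a member beside 7.22% of all eligible genes. The lists were chosen with earlier results of these data known, share some genes, and were not tested. Their genes were longer than usual, with medians of 4.09 to 33.0 kb of eligible sequence per list against 2.65 kb over all eligible genes. Among muscle genes, 1 of 15 early mesoderm regulators held a member, with 3 of 22 muscle identity factors, 3 of 17 myoblast fusion genes, 3 of 25 sarcomere genes and 5 of 24 genes of integrins and attachment. These lists had 4.65, 13.3, 13.8, 13.3 and 15.9 members per Mb.

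The early mesoderm gene was Mef2, whose first intron held a summit with a signal of 333, ranked 869, 1320 and 1437 in the replicates. Among identity factors, nau itself held a summit at 3R, 23714013 to 23714178, with a signal of 419. It ranked 597, 994 and 774, lay 2542 bp from a TSS, and was matched among the strongest regions of every replicate. The reads of the tagged transgene and of the native gene cannot be told apart in these lists. The others on the identity list with a member were the bZIP factor gene vri (signal 387) and the Wnt antagonist gene nkd (signal 217). The gene nkd was also counted in the Hedgehog, Wnt and Dpp list. Of nkd's ranks, 6716 in replicate 1 fell outside the strongest regions, while 1844 and 2356 in the others were inside.

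For fusion, kirre held 4, siz (an Arf exchange factor) 2 and rols (a founder-cell adaptor) 1. The strongest in kirre had a signal of 520 and ranked 421, 717 and 458, and its other summits were between 169 and 211. Among sarcomere and contraction genes, Dys held 3 with signals of 697, 519.5 and 202, while Zasp52, a Z-disc protein, and Msp300, a nesprin, held 2 each with the strongest at 249 and 230. In the attachment list, sr, the tendon cell factor, held 2 (strongest signal 223), wb, a laminin, 1 (222.5) and if, an integrin alpha subunit, 1 (196). Applied to the replicates, the rule gave 4.33 ± 0.577 muscle identity genes and 4.33 ± 0.577 sarcomere genes (SD, n = 3). Attachment genes varied more, with 7, 2 and 6 in replicates 1 to 3.

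Isolated summits were dense in the list of ecdysone response and hormone receptors. Steroid pulses reach nuclear receptors such as EcR, which switch on early genes like Eip75B and Eip74EF and then later ones. In this list 24 members lay in 7 of 23 genes, or 34.8 per Mb. They comprised the 6 of Eip75B, 4 of Hr4, 3 each of Hr3, ftz-f1, EcR and Eip74EF, and 2 of tai, a coactivator. The replicates gave 19, 26 and 21 members by the same rule, in 7, 8 and 8 genes. It was the densest list in the pooled regions and in replicate 2, while the tracheal, gut and receptor tyrosine kinase lists were denser in replicate 1 and the gut list in replicate 3. The strongest in EcR had a signal of 360 with ranks of 958, 1765 and 879, and that in Eip74EF 349 with ranks of 1899, 583 and 1247.

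Genes of receptor tyrosine kinase and Ras signalling held 16 members in 11 of 32 genes (28.7 per Mb). Among ligands and their inhibitors, aos was strongest (signal 683), then vn, the neuregulin-like ligand of the EGF receptor (634, ranks 322, 454 and 242) and Pvf3, a PDGF and VEGF-related ligand (343.5). The kinase gene Raf held 2, with signals of 374 and 169. Hedgehog, Wnt and Dpp genes held 11 in 6 of 28 genes (21.3 per Mb), led by the Wnt receptor fz with 4 (strongest 515), then the ligand dpp (318), its receptor tkv with 3 (250) and fz2 (224). The replicates gave 16, 13 and 16 members for the former and 13, 13 and 12 for the latter. Notch pathway genes held 3 members in 3 of 16 genes (10.3 per Mb), namely mam, kuz and fng.

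Genes of transcription factors followed. Zinc-finger and other long-intron factors held 35 members in 19 of 53 genes (23.4 per Mb), led by sbb (signal 747), bun (553), bab1 (537) and ken (484). Homeobox genes held 14 in 8 of 49 (14.8 per Mb), led by Scr (895), otp (722), cad (317) and Antp (293). Genes of axon guidance and synaptic adhesion held 24 in 14 of 50 (9.69 per Mb), led by Ten-m (671), kirre, dlp (387) and Fas3 (375).

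Ion channel and synapse genes held few isolated summits, with 3 members in 3 of 33 genes and 3.27 per Mb, the lowest of the lists in the pooled regions. These were Shal (signal 247), ClC-a (207) and Ca-beta (195), and the replicates gave 4, 3 and 2. In replicate 1 the Notch pathway list, with 1 member, was sparser. Lists that mark other tissues were short. Neural markers held 3 members in 3 of 19 genes (ChAT, pros and elav, 12.3 per Mb), gut genes 3 in 3 of 14 (dpp, cad and bowl, 32.9 per Mb), and tracheal genes 5 in 3 of 13 (bnl, tkv and sty, 32.9 per Mb). Epidermal genes held 3 in 3 of 13 (grh, wgn and mwh, 18.4 per Mb), and fat body and hemocyte genes 1 in 1 of 15 (ush, 6.95 per Mb). Isolated summits were thus not limited to genes of the muscle lists.

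**Figure D5:**
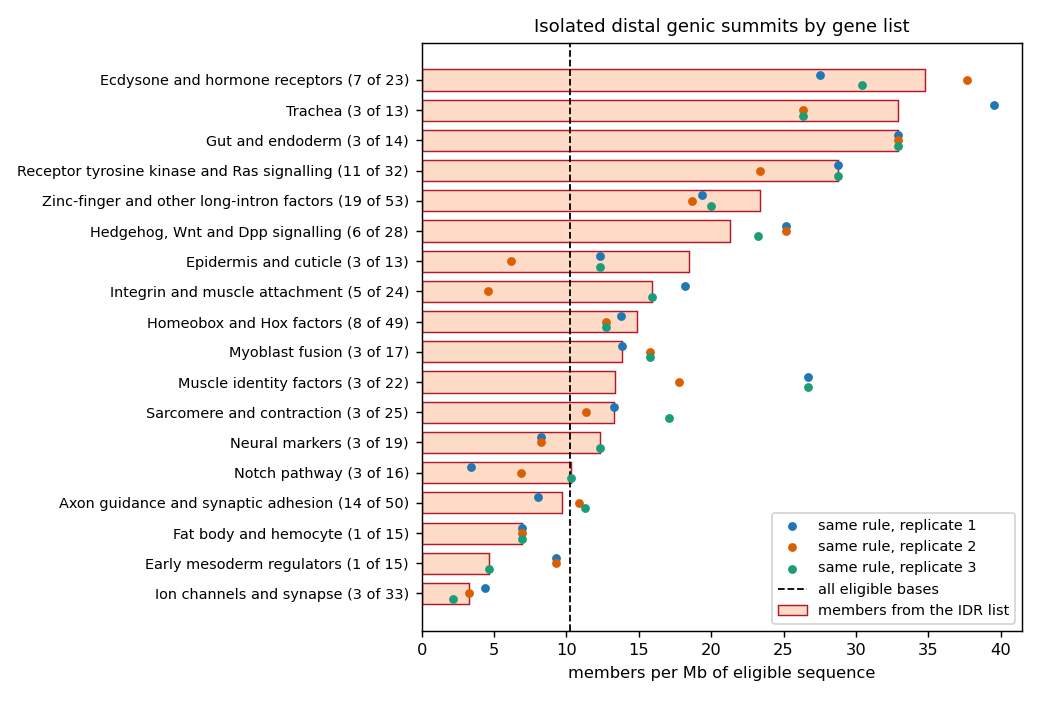
Isolated summits per Mb of eligible sequence (horizontal axis) for 18 gene lists, with the number of genes holding one and of eligible genes in brackets; bars are members from the pooled list, points the same rule in each replicate, and the dashed line all eligible bases. Ecdysone and hormone receptor genes stand at 34.8 per Mb and ion channel genes at 3.27, beside 10.3 for all.

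Members next to the limits of the rule spanned a wide range of signal. Just inside the TSS limit lay summits in Eip75B (2009 bp, signal 180), Doa (2024 bp, 172) and the Hr3 locus (2052 bp, 334), and just outside it lbk (1985 bp, 422.5) and toc (1982 bp, 195). For isolation, Rbfox1 (3003 bp, signal 473), edl (3018 bp, 216.5) and Dhit (3018 bp, 209) were just kept, and Svil (2994 bp, 174), trio (2971 bp, 188) and rols (2970 bp, 219.9) just not. The weakest member had a signal value of 166.32. The strongest pooled summit below the list that met the same distances had 166.18.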

How the data were processed

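Anti-GFP chromatin immunoprecipitation and sequencing was carried out on 3 biological replicates of nau-GFP embryos. The authors deposited narrowPeak lists of 30000 regions per replicate and for the pooled replicates, and a shorter pooled list passing an irreproducible discovery rate (IDR) threshold, on the dm6 build. Signal values are an enrichment measure as deposited by the authors. Not given in the sources used here are their scale, the aligner and caller and how strict the IDR threshold was. The summit offset, the other deposited column used (another unit, in bp), was added to the region start. The IDR list equalled the strongest pooled regions. Lists on the older build were not used. Depth is unknown, so precision is limited to counts of regions, with 95% Wilson intervals.

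TSSs were the starts of 19607 protein-coding transcripts of 13945 genes (Ensembl release 115, BDGP6.54), and sequence was RefSeq's Release 6. Both strands were searched for words within 100 bp of summits and in flanks centred 1000 bp away, counting a window once. In words, R is A or G, Y is C or T, W is A or T and N any base, and E-box forms can overlap other words. Windows were compared with 2-sided Fisher's exact tests, Benjamini-Hochberg adjusted over 10 E-boxes, 15 other words, 25 words between classes or all hexamers, at 0.05. Since regions are no biological replicates, these p-values measure spread over regions only, and each replicate's own list gave values as mean ± SD. The members, words and gene lists were chosen with earlier results of these data known. The result of 1 list is not reported here. Of 521 list names 515 were matched, 15 by older symbols. Named genes were those at the 20 strongest members, those with 3 or more members, up to 4 of each list by signal, and those next to the limits. Of the 200 strongest members, 155 could have a sequence shown, being off arm 2R and free of exons. Alternatives covered distances, TSS sets, windows, flanks, GC share, weak pooled regions, each summit paired with 1 flank, and leaving out each replicate. Fisher's tests treat a summit and its flanks as separate windows. The test was tried on simulated data. Tables were computed with pandas 2.3.3 and numpy 2.4.6 in Python 3.11.15, tests with scipy 1.17.1 and plots with matplotlib 3.10.9.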

Additional observations from a re-analysis of the deposited data

How the results depend on the processing

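CAGCTG and the Fox word were above their background in 20 of 20 alternatives and passed in 19, with ratios of 1.14 to 2.92 and 1.12 to 2.72. The background was the members' own flanks, except where weak pooled regions took their place (ratios 1.83 and 1.43). The exceptions were windows of lower GC share, with ratios of 1.1358 (Fisher's exact test, adjusted p = 0.794) and 1.1182 (adjusted p = 0.865), a split added after the data were seen. The cause was not tested. The number of isolated summits was 786 with gene 5′ ends as TSSs, 705 with a TSS distance over 1000 bp, 702 with isolation of 2000 bp, 340 with a TSS distance over 5000 bp, 285 in the stronger part of the members, and 325 to 362 when matches in both other replicates were required, since these settings keep fewer. Genes holding one then numbered 262 to 292. The share matched in every replicate was 36.8% within 50 bp and 92.8% among all regions. Other words passing against flanks numbered 3 with isolation of 2000 bp, 3 with windows of 250 bp to either side and 2 with flanks at 2000 bp. Against weak pooled regions in place of flanks, 3 passed. In these settings GATA, TEAD, GAGA or the homeodomain word joined. GATA fell below its flanks with windows of 250 bp (ratio 0.973). Hexamers passing numbered 50 with windows of 50 bp, 211 with flanks at 2000 bp (65 of them among the 79), 43 with flanks in introns and 21 to 26 without a replicate, which leaves fewer summits. Against clustered summits, 0 to 1 words passed without a replicate (Ets without replicate 1, adjusted p = 0.0358, Fisher's exact test), and the Fox ratio ran from 0.907 to 1.03, above 1 without replicate 2. Against intergenic summits, 0 words passed with windows of 250 bp, and 0 passed whichever replicate was left out. No paired analysis was possible because the series holds 1 group, as far as samples go. Each summit was paired with 1 of its own flanks in exact McNemar tests added after the data were seen. CAGCTG had ratios of 1.85 and 1.93 (flanks at lower and higher coordinates, exact tests, adjusted p = 0.0033 and 0.0018) and Fox 1.76 and 1.54 (adjusted p = 3.66e-10 and 9.27e-07). TEAD, lower at summits, also passed against the first flanks (exact test, adjusted p = 0.0346).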

Other observations

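Longer forms of the enriched words, picked after their values were seen and not tested, were more frequent at isolated summits than in their flanks. CAGCTGTT was at 25 of 570 summits (4.39%) and in 7 of 1140 flanks (0.614%), beside 6.21% of clustered, 6.86% of near-TSS and 3.96% of intergenic summits. TGTAAATA, a form of the Fox word, was at 39 summits (6.84%) and in 22 flanks (1.93%), beside 4.55% of clustered, 4.52% of near-TSS and 1.98% of intergenic summits. CAGCTG and the Fox word occurred together at 36 members (6.32%), beside 5.65% of all listed and 7.25% of clustered summits. Neither word was at 266 members (46.7%), beside 50.3% of all listed and 44.9% of clustered summits.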
